A study of Bos indicus with 11 samples.

Results

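The serpins are a superfamily of proteins named after their serine protease inhibitors, and their genes were followed here in the endometrium of beef cows sampled 6 days after artificial insemination (AI). Members were the rows of the deposited table in which any listed gene symbol began with SERPIN, a clade letter from A to I and a digit. This rule found 34 of the 24616 rows, in 9 clades, with 12 rows each in clades A and B. Of these, 33 had a read in at least 1 cow, and 1 of the 2 rows named SERPINB2 had none. The uterine serpin was present under its symbol SERPINA14. The samples were uterine biopsies of healthy, multiparous Nelore cows (Bos indicus), 6 of which were pregnant (P) and 5 non-pregnant (NP) at the diagnosis on day 30. All cows had been synchronized and inseminated, and for sequencing they were selected for close plasma progesterone levels and for ovulation soon after AI. The biopsy came from the uterine horn opposite the corpus luteum, and therefore not from the side of ovulation. Each cow was 1 library and 1 replicate, with 9290949 to 13569085 reads on genes. One supplement of the study names cow P617 as non-pregnant, whereas the sample labels place it in the P group, as was done here.

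A typical serpin offers its target protease a flexible loop as bait, and on cleavage folds around the bound protease and traps it in an inactive complex. Clade A serpins are mostly secreted, many of them by the liver into plasma. Clade B serpins lack a classical signal peptide and act largely inside cells. Some members inhibit no protease, among them the collagen chaperone SERPINH1 and the hormone carrier SERPINA7. The uterine serpin is a product of the endometrial glands that is known to depend on progesterone in ruminants, and it is the main component of the uterine milk of sheep.

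Values are normalized counts, that is, reads per gene divided by a size factor per cow. Differences are log2 fold changes, NP over P, on the scale of log2(normalized count + 1), with the standard error (SE) from limma, a linear model per gene, which was run on all 15081 genes with a mean of at least 5 normalized counts. Of the 33 serpins with a read, 25 were in that test. The other 8 were too low, at a mean of under 5. Reads were counted without a stated use of strand, and 9 of the 34 rows carry more than 1 symbol, so the counts of overlapping or near-identical serpins are uncertain.

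One library stood apart from the rest. Cow P617 lay lowest of all 11 cows in 11 of 11 epithelial markers and highest in 7 of 8 smooth muscle markers and 8 of 9 liver markers. Its summed liver markers reached 14220 normalized counts, against 193 to 1411 in the other cows, with ALB (albumin) at 3323 against 5.03 to 46.5. Its epithelial markers summed to 2399, against 11100 to 29770 in the others. The epithelial marker EPCAM lay at 269 in P617 and between 2110 and 4719 in the other 10 cows. Cow P1541 came next to P617 in its smooth muscle score, the mean log2(normalized count + 1) over 8 marker genes, which was 15.4 in P617 and at most 14.2 in the 9 cows other than these. Blood cell markers summed to at most 17.3 normalized counts in any cow. The main results are therefore given with and without P617.

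**Figure D1:**
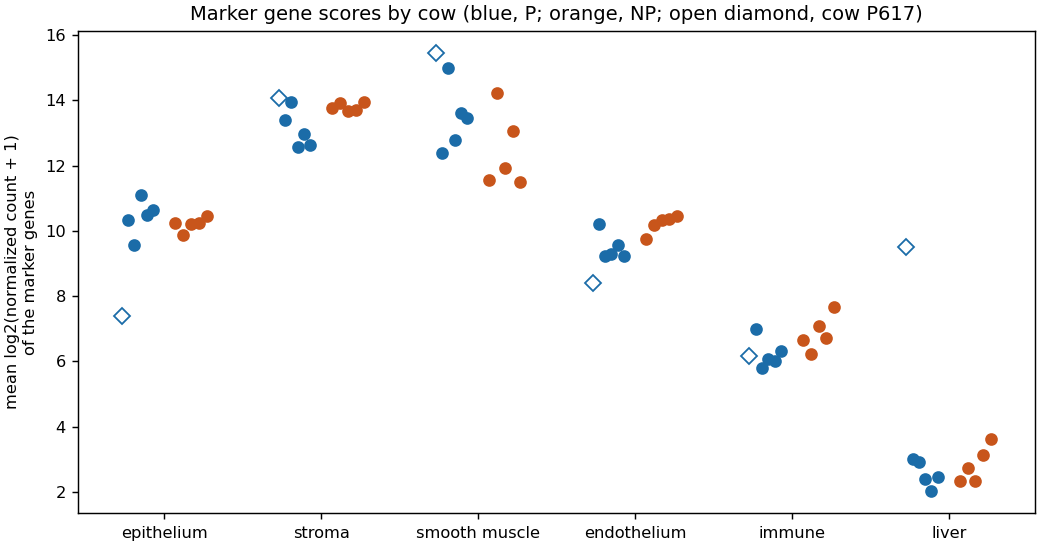
Marker gene scores by cow. The vertical axis is the mean log2(normalized count + 1) over the marker genes of each cell type or tissue, blue symbols are P cows, orange symbols are NP cows and the open diamond is cow P617, which lies at 9.50 for liver against 2.03 to 3.63 in the other cows.

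None of the serpins passed the adjusted threshold of 0.1 in limma, 0 of 25, as 0 of all genes tested did (0%). At an unadjusted p-value under 0.05 there were 3 serpins, SERPINA11, SERPINB9 and SERPINF1, which is 12% of those tested against 7.84% of all genes tested. SERPINA11 was higher in P cows (2.35% of all genes), and SERPINB9 and SERPINF1 were higher in NP cows (5.49%). The groups did not overlap in SERPINA11 and SERPINB9, 2 of the 25, against 1.09% of all genes. Of the 25 serpins, 6 entered the test only through cow P617. Without it, 19 serpins were tested, again 0 passed the adjusted threshold (0% of all genes), and SERPINA1 and SERPING1 joined the first 3, so that 5 of 19 were at an unadjusted p-value under 0.05 (8.94% of all genes). Of these 5, SERPINA1 and SERPINA11 were higher in P cows (2.73%) and the other 3 in NP cows (6.21%), and the same 2 serpins were without overlap (1.86%).

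The tests on recovered reads gave other counts. The quasi-likelihood test of edgeR called 0 serpins (0% of all genes) and gave 8 at an unadjusted p-value under 0.05 (7.63% of all genes). Of these 8, SERPINA3, SERPINA3-1, SERPINA3-7 and SERPINF2 were high in P617 alone, and without that cow edgeR gave 5 (8.55%). DESeq2 called 2 serpins, SERPINA11 (adjusted p = 0.0197) and SERPINB9 (adjusted p = 0.0150), and 1.33% of all genes, with 4 serpins at an unadjusted p-value under 0.05 (9.75%). With all cows DESeq2 gave no p-value for SERPINA3, SERPINA3-1, SERPINA3-3, SERPINA3-7, SERPIND1 and SERPINF2, so its count and that of edgeR do not cover the same serpins. Without P617 it called the same 2, at adjusted p = 0.00749 and 0.0244, with 2.18% of all genes, and 5 were at an unadjusted p-value under 0.05 (9.87%).

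Over the 25 serpins tested, 12 had a value above 0 (toward NP) and 13 below it (toward P), and the median log2 fold change was -0.07, against 0.0018 for all genes tested. Without P617, 11 of the 19 serpins had a value above 0 and the median was 0.07, against -0.02 for all genes. The members thus had no common direction. The 4 clade A serpins tested without P617, SERPINA1, SERPINA5, SERPINA11 and SERPINA14, had values from -1.93 to -0.21, and 2 of them were at an unadjusted p-value under 0.05 (8.94% of all genes).

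**Figure D2:**
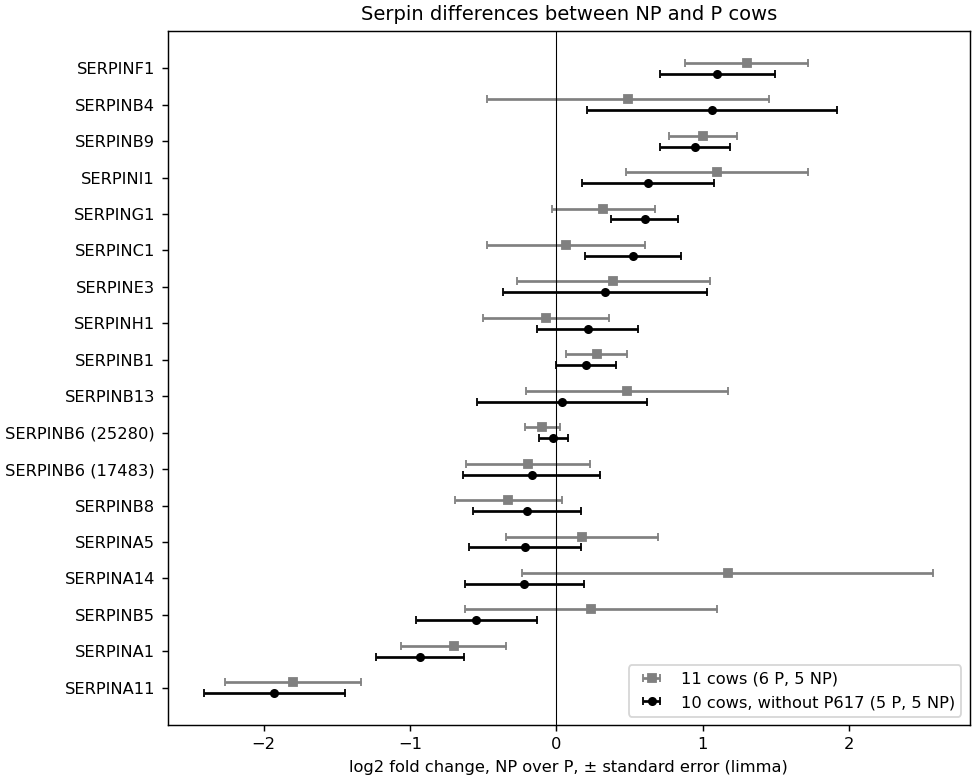
Differences of serpins tested with and without cow P617. The horizontal axis shows log2 fold changes, NP over P, with their standard errors in limma, squares are the fits with 11 cows and circles the fits with 10 cows; SERPINA11 lies lowest, at -1.80 and -1.93, and the value of SERPINA14 moves from 1.17 to -0.22.

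SERPINA11 (ENSBTAG00000038361) is a clade A serpin whose target is not well known. Normalized counts in P cows ran from 27.4 in P1631 over a median of 56.5 to 108 in P1753, with 33.9 in P617. The NP cows had 5.06 in NP238, 16.2 in NP638, 16.5 in NP2541, 17.2 in NP856 and 26.5 in NP2810. No P cow was as low as any NP cow, as in 0.239% of all genes tested and 0.486% without P617, although the nearest pair of cows was 26.5 against 27.4. The P cows themselves fell apart into P904, P1753 and P2396 at 76.1 or more and P617, P1541 and P1631 at 36.8 or less. Behind the lowest value stood 5 reads. Without P617 the means were 65.5 ± 33.0 in P cows (SD, n = 5) and 16.3 ± 7.61 in NP cows (SD, n = 5). This is a log2 fold change of -1.93 (SE 0.481, adjusted p = 0.212 in limma), against -1.80 (SE 0.467, adjusted p = 0.320) with all cows. With all 462 ways to split the cows, the two-sided exact permutation test gave p = 0.00433, where 0.00216 is the smallest possible. SERPINA11 and SERPINB9 are among the genes that the study called on these same cows, so their differences here are not independent evidence. By quantitative real-time PCR the study also reported SERPINA11 as lower in NP cows, in the sequenced cows and in other cows of the same experiment. SERPINB9 was not among the genes it measured in this way.

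SERPINB9 (ENSBTAG00000031267) encodes the intracellular inhibitor of granzyme B, the cytotoxic protease of natural killer and T cells. It had 41.1 in P2396 as the lowest P value, a median of 47.2 and 86.2 in P904 as the highest. In NP cows the normalized counts were 95.1 in NP238, 95.4 in NP638, 113 in NP856, 114 in NP2810 and 125 in NP2541. All 5 NP cows lay above all 6 P cows, as in 0.855% of all genes tested, and cow P617, at 44.1, lay within the other P cows. The NP cows also lay close together, at 109 ± 13.2 (SD, n = 5), against 55.6 ± 18.3 in P cows (SD, n = 6). The log2 fold change was 1.00 (SE 0.232, adjusted p = 0.264 in limma) and 0.95 without P617 (SE 0.240, adjusted p = 0.212), with p = 0.00433 in the two-sided exact permutation test with 11 cows. Without cow P904, the highest P cow, it was 1.14 and passed the threshold (adjusted p = 0.0481 in limma), in a fit that called 171 genes in all.

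Its target GZMB (ENSBTAG00000039813) ranged from 6.78 to 110 normalized counts in the 10 cows other than P617 and stood at 9.04 in P617, with an unadjusted p of 0.287 in limma. A second row named GZMB (ENSBTAG00000010057), too low for the test, had 4.05 in NP238, 1.02 in NP2810 and 0 in every other cow. The score of 7 immune markers was 6.22 ± 0.41 in P cows (SD, n = 6) and 6.87 ± 0.54 in NP cows (SD, n = 5; two-sided exact permutation test, p = 0.0498, and 0.149 after adjustment over the 6 marker scores). The score of 7 endothelial markers was 9.33 ± 0.59 in P cows and 10.2 ± 0.28 in NP cows (exact permutation test, p = 0.0130, adjusted p = 0.0779). Without P617 the exact permutation p was 0.0873 for the immune and 0.0238 for the endothelial score. The part of these scores in the difference of SERPINB9 was not tested. In a whole biopsy, fewer cells of a type and less RNA per cell cannot be told apart.

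SERPINF1 (ENSBTAG00000009705) encodes pigment epithelium-derived factor, a secreted serpin that inhibits no protease and is known to restrain the growth of blood vessels. P cows had normalized counts from 188 in P617 over a median of 415 to 970 in P904. NP cows had 722 in NP638, 745 in NP2541, 863 in NP856, 1059 in NP238 and 1457 in NP2810. The groups overlapped through P904 alone, since the other 5 P cows were at 566 or less. Its log2 fold change was 1.30 (SE 0.421, adjusted p = 0.434 in limma; exact permutation test, p = 0.0303), and 1.1 without P617 (SE 0.395, adjusted p = 0.417). The endothelial and stromal marker scores were also higher in NP cows on average, the latter at 13.8 ± 0.13 (SD, n = 5) against 13.3 ± 0.65 (SD, n = 6; exact permutation test, p = 0.128, adjusted p = 0.19 over the 6 marker scores, and unadjusted p = 0.0476 without P617). The highest stromal scores were those of P617, at 14.07, and P1541, at 13.96, above every NP cow. The part of the endothelial and stromal scores was not tested. With the smooth muscle score as a covariate the log2 fold change of SERPINF1 was 0.96 and no longer at an unadjusted p-value under 0.05. The smooth muscle score was itself lower in NP cows, at 12.5 ± 1.2 (SD, n = 5) against 13.8 ± 1.2 in P cows (SD, n = 6; exact permutation test, p = 0.104). Fits with this covariate, here and for other serpins, therefore cannot fully separate the score from the group.

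**Figure D3:**
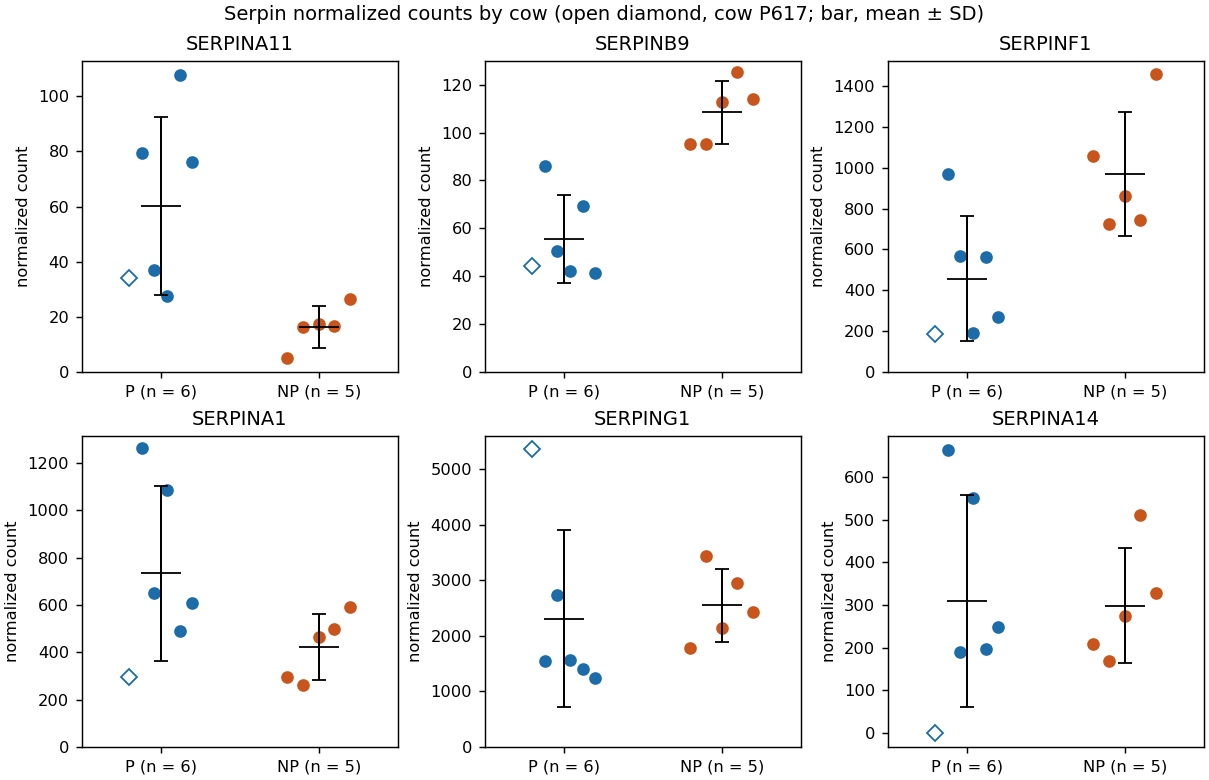
Normalized counts of 6 serpins by cow. Each vertical axis is the normalized count from 0, points are cows (P in blue, NP in orange, P617 as the open diamond), and bars are the mean and SD; the groups do not overlap in SERPINA11 and SERPINB9, while P617 lies at 5364 in SERPING1 and at 0 in SERPINA14.

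SERPINA1 (ENSBTAG00000018843) encodes alpha-1-antitrypsin, the plasma inhibitor of neutrophil elastase. Its P values ran from 296 in P617 over a median of 631 to 1263 in P904, and cow P1631 came next at 1087. The NP cows had 260 in NP638, 297 in NP238, 466 in NP856, 496 in NP2541 and 590 in NP2810. P904, P1631, P1541 and P2396, 4 of the 6 P cows, were above every NP cow, and P617, the cow with the highest liver score, lay among the lowest cows. With all cows the log2 fold change was -0.70 (SE 0.360, adjusted p = 0.692 in limma), and without P617 it was -0.93 (SE 0.301, unadjusted p = 0.00988, adjusted p = 0.349).

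SERPING1 (ENSBTAG00000016267) encodes C1 inhibitor, which blocks the first proteases of the complement cascade. P617 had 5364 normalized counts, P1541 had 2745 and the other 4 P cows ran from 1239 in P2396 to 1562 in P1631. NP cows had 1789 in NP238, 2143 in NP856, 2434 in NP2810, 2956 in NP2541 and 3432 in NP638. P617, NP638, NP2541 and P1541, in this order, were the 4 highest cows, and all of them but NP2541 were also the 3 cows with the highest smooth muscle scores. Its log2 fold change was 0.32 with all cows (SE 0.352, adjusted p = 0.861 in limma) and 0.61 without P617 (SE 0.229, unadjusted p = 0.0224, adjusted p = 0.445). With the smooth muscle score as a covariate it was 0.90 (unadjusted p = 0.00470, adjusted p = 0.593 in limma). The groups overlapped with and without P617.

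The uterine serpin SERPINA14 (ENSBTAG00000007392) had no read in cow P617. In the other P cows it had 190 in P1541, 197 in P1753, 249 in P2396, 552 in P1631 and 663 in P904. NP cows had 167 in NP638, 207 in NP238, 273 in NP856, 329 in NP2810 and 512 in NP2541. The ranges of the 10 cows with reads lay over each other almost entirely. The means without P617 were 370 ± 221 in P cows (SD, n = 5) and 298 ± 135 in NP cows (SD, n = 5). Without P617 the log2 fold change was -0.22 (SE 0.407, adjusted p = 0.956 in limma), and the value of 1.17 with all cows (SE 1.41, adjusted p = 0.867) took its sign from the single cow at 0.

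SERPINA5 (ENSBTAG00000004063), the inhibitor of activated protein C, likewise had its lowest value in P617, at 139, and its P cows had a median of 599 and a highest value of 1231 in P904. Among NP cows it had 354 in NP2541, 365 in NP638, 589 in NP2810, 894 in NP856 and 1179 in NP238. High and low cows were thus found in both groups. Its log2 fold change was 0.17 (SE 0.520, adjusted p = 0.948 in limma) and -0.21 without P617 (SE 0.380, adjusted p = 0.952).

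A further set of serpins was low in P617 along with the epithelial markers. SERPINB5 (ENSBTAG00000002019), or maspin, an epithelial serpin that inhibits no protease, had 1.13 normalized counts in P617, which is a single read, a median of 52.8 and a highest P value of 109 in P2396. Its NP cows had 24.5 in NP2810, 31.4 in NP238, 35.5 in NP638, 40.8 in NP2541 and 64.5 in NP856. The ranges overlapped, and the direction of the difference turned with P617, from a log2 fold change of 0.24 (SE 0.860) to -0.55 (SE 0.413), and was -0.17 with the epithelial score as a covariate.

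SERPINI1 (ENSBTAG00000012708), neuroserpin, an inhibitor of tissue plasminogen activator, had 11.3 in P617, a median of 71.2 and a highest P value of 193 in P2396. In NP cows it had 57.8 in NP638, 85.5 in NP2541, 147 in NP856, 201 in NP2810 and 286 in NP238. Of the 5 NP cows, 2 were above every P cow. The log2 fold change was 1.098 (SE 0.625, adjusted p = 0.739 in limma), 0.63 without P617 (SE 0.449) and 0.84 with the epithelial score as a covariate. Over the alternatives tried, apart from the count tests without P617, the value of SERPINI1 ran from 0.14 to 1.42. SERPINB13 (ENSBTAG00000035182), known from keratinocytes, had no read in P617 and 1.94 to 15.8 normalized counts in the others, with log2 fold changes of 0.48 (SE 0.691) and 0.04 without P617 (SE 0.579).

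SERPINB6 (ENSBTAG00000025280), an intracellular inhibitor of trypsin-like proteases and cathepsin G, varied little between cows. Its P values ran from 1023 in P1753 over a median of 1261 to 1612 in P617. In NP cows the values were 1077 in NP2541, 1108 in NP238, 1156 in NP856, 1193 in NP2810 and 1241 in NP638. P617 was the one cow clearly above the rest, and the log2 fold change was -0.10 (SE 0.121) and -0.02 without it (SE 0.0998). A second row with this symbol (ENSBTAG00000017483), which may share reads with copies, had 2.35 to 11.8.

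SERPINB1 (ENSBTAG00000011975), which inhibits neutrophil elastase and other granule proteases, ran from 193 in P1541 over a median of 281 to 465 in P1631 among P cows. The NP cows had 296 in NP2810, 308 in NP638, 326 in NP2541, 345 in NP238 and 422 in NP856. These lay within the range of the P cows, with a log2 fold change of 0.28 (SE 0.208, adjusted p = 0.799 in limma) and 0.20 without P617 (SE 0.207). SERPINB8 (ENSBTAG00000001207), an inhibitor of furin, had 72.0 to 159 in P cows and 31.4 to 148 in NP cows, with a log2 fold change of -0.33 (SE 0.366) and -0.20 without P617 (SE 0.368). Of the 8 clade B serpins tested, SERPINB9 was the 1 at an unadjusted p-value under 0.05, a share near that of all genes (7.84%).

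SERPINE3 (ENSBTAG00000005284) spread widely in both groups, from 17.5 to 234 in P cows and from 34.5 to 203 in NP cows, and its log2 fold change was 0.39 (SE 0.660) and 0.33 without P617 (SE 0.699).

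SERPINH1 (ENSBTAG00000001027), the chaperone that helps procollagen fold in the endoplasmic reticulum, had 21740 normalized counts in P617, 16760 in P1541 and 3772 to 7271 in the other 4 P cows. The NP cows had 6642 in NP2541, 6746 in NP856, 7057 in NP238, 8846 in NP2810 and 9883 in NP638. P617, P1541 and NP638 were the 3 highest cows, and they were also the 3 with the highest smooth muscle scores. The log2 fold change was -0.07 with all cows (SE 0.430), 0.21 without P617 (SE 0.347) and 0.55 with the smooth muscle score as a covariate. Without both P617 and P1541 it was also 0.55 (unadjusted p = 0.0303 in limma), so that the direction turned with these cows.

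Several serpins known as liver products of the plasma were high in P617, and all of these but SERPINC1 were near the limit of detection in the other 10 cows. SERPINA1, also a liver product of the plasma, was not among them, at 296 in P617 against 260 to 1263 in the other cows. The 5 rows of SERPINA3 copies, antichymotrypsin and its bovine relatives, summed to 1363 normalized counts in P617 and to at most 7.74 in any other cow. Within them SERPINA3-7 had 639 in P617, SERPINA3-1 had 505, SERPINA3 had 112, SERPINA3-3 had 56.5 and SERPINA3-8 had 50.8. These copies are close in sequence, and how reads divided among them is uncertain.

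SERPINF2, the inhibitor of plasmin, had 149 in P617 and 0 to 3.04 in the others. SERPINC1 (ENSBTAG00000004362), or antithrombin, had 160 in P617 and, unlike SERPINF2 and SERPIND1, was detected in every cow, at 11.5 to 34.3 in the other P cows. Its NP cows had 27.3 in NP238, 27.4 in NP638, 32.1 in NP2541, 34.4 in NP856 and 49.9 in NP2810, and its log2 fold change was 0.07 (SE 0.538) and 0.53 without P617 (SE 0.328). SERPIND1, or heparin cofactor II, had 63.3 in P617 and 0 to 7.06 in the others. SERPINA10, which inhibits coagulation factor Xa, had 49.7 in P617 and 0 reads in the others, and SERPINA7, the thyroxine-binding globulin, had 15.8 in P617 and at most 1.01 in the others.

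The 6 serpins that entered the test only through P617 had to be high in it, so the next counts describe that cow and support nothing further. In 6 of the 25 serpins tested, P617 was over 5 times the highest other cow, as in 0.497% of all genes tested. It was the highest cow in 12 of the 25, against 26% of all genes, and the lowest in 6, against 27.1%. In 4 of these 6 it was more than 5 times below the lowest other cow, against 4.44% of all genes. Liver markers moved with these serpins in the same cow, AHSG with 372 normalized counts in P617 against at most 1.75 elsewhere and AMBP with 477 against at most 0.97. Their part in the levels of P617 was not tested. Every NP cow had at most 3 reads for SERPINA3, SERPINA3-3, SERPINA3-7, SERPINA3-8, SERPINA7, SERPINA10 and SERPINF2. The difference between the groups in these genes rests on P617 alone, so no fold is given.

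**Figure D4:**
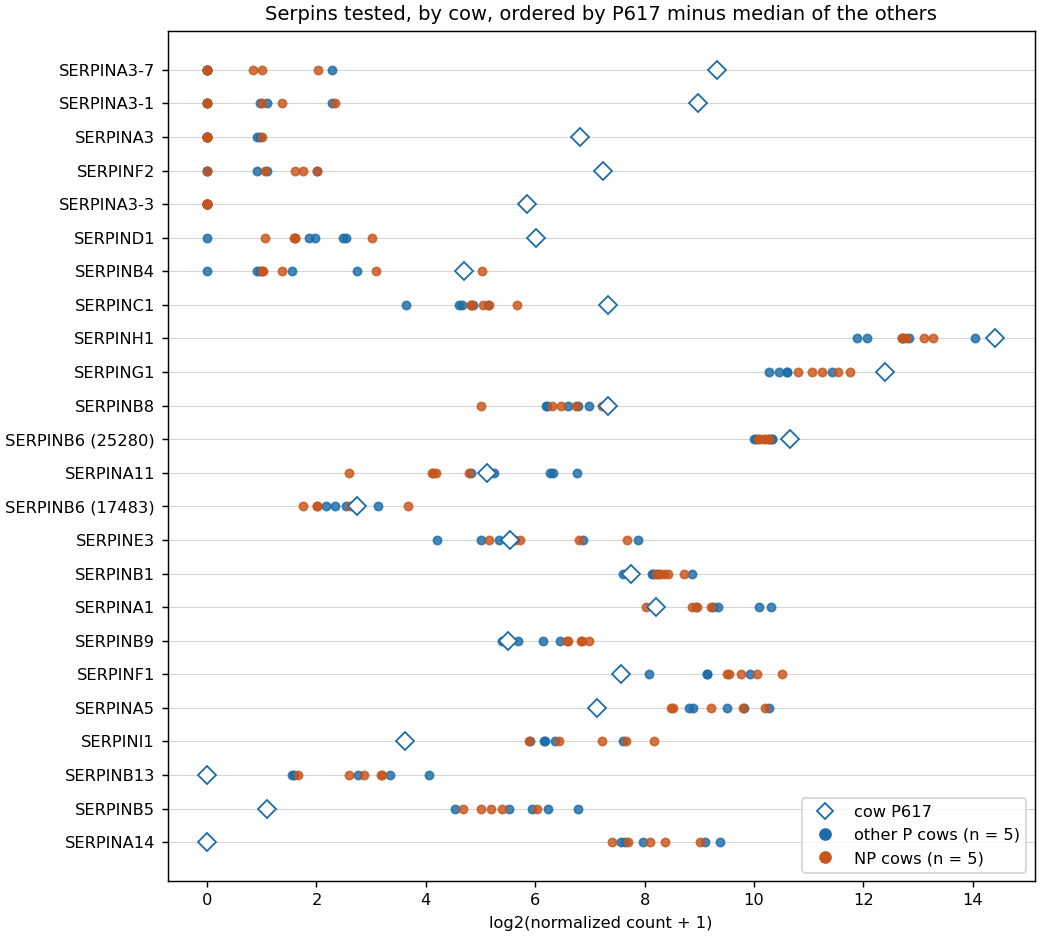
Serpins tested, cow by cow. The horizontal axis is log2(normalized count + 1), rows are genes ordered by the value of cow P617 minus the median of the other 10 cows, and the open diamonds are P617, which is far to the right for the SERPINA3 copies and SERPINF2 and far to the left for SERPINB5 and SERPINA14.

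The serpins that remain had few reads. SERPINB4 (ENSBTAG00000039037), on a row that carries 13 symbols of a family of copies, had 24.9 in P617, 31.5 in NP638 and 0 to 7.53 in the others. SERPINA12, or vaspin, had at most 8.75 normalized counts, SERPINI2 at most 11.8, SERPINB10 20.6 in P1631 and at most 5.38 elsewhere, SERPINB7 at most 3.02 and the row of SERPINB2 with reads (ENSBTAG00000023198) at most 5.38. At this depth no difference between the groups was detectable in these genes.

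Several clade A genes lie in a cluster. Gene order was taken from RefSeq for a Bos indicus assembly, which is not the build of the reads and served for neighbourhood only. In it SERPINA11 lies between SERPINA1 and SERPINA12, and DDX24 and PPP4R4 come before the cluster and GSC and DICER1 after it. Genes without a name of their own were passed over, so the genes named need not be adjacent. DDX24 (ENSBTAG00000003423), an RNA helicase, had 1658 ± 72.1 normalized counts in P cows (SD, n = 6) and 1375 ± 72.4 in NP cows (SD, n = 5). Its lowest P cow, at 1559, lay above its highest NP cow, at 1443, with a log2 fold change of -0.27 (SE 0.0782, adjusted p = 0.364 in limma and 0.00683 in DESeq2) and -0.27 without P617 (SE 0.0819). The exact permutation test gave p = 0.00216, the smallest it can give. DDX24, too, is among the genes the study called on these cows. On the other side DICER1, which processes microRNA precursors, had 485 ± 109 in P cows and 557 ± 140 in NP cows (SD), with a log2 fold change of 0.19 (SE 0.204) and 0.12 without P617 (SE 0.207). Within the cluster, the groups overlapped in SERPINA1, SERPINA5, SERPINA10 and SERPINA12 and did not in SERPINA11. GSC, at most 3.02, was too low to compare.

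Proteases that serpins are known to inhibit, together with their activators and receptors, were taken from a list of 57 genes, of which 43 were tested. None passed the adjusted threshold in limma (0% of all genes), and 8 were at an unadjusted p-value under 0.05 (7.84% of all genes). NP cows had the higher level in 6 of the 8 (5.49%) and P cows in 2 (2.35%). The count tests called 0 of the list with edgeR (0% of all genes) and 2 with DESeq2 (1.33% of all genes), MASP1 (adjusted p = 0.0354) and KLK4 (adjusted p = 0.0834). MASP1 is among the genes that the study called on these same cows, so its difference here is not independent evidence. The median log2 fold change over the list was 0.40 in limma, 0.27 without P617, 0.16 in edgeR and 0.15 in DESeq2. Without P617, 14 of 41 were at an unadjusted p-value under 0.05 (8.94% of all genes), 11 of them higher in NP cows (6.21%).

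PLAT (ENSBTAG00000001244), tissue plasminogen activator, is a target of SERPINI1. It had 668 to 4381 normalized counts in P cows, with a median of 1121. NP cows had 2154 in NP638, 2527 in NP2541, 5220 in NP238, 5591 in NP856 and 6699 in NP2810. The groups overlapped through cow P904, which was the P cow at 4381. The log2 fold change was 1.67 (SE 0.498, adjusted p = 0.372 in limma; exact permutation test, p = 0.0216) and 1.52 without P617. PLAU, the urokinase, had 165 to 340 in P cows and 228 to 428 in NP cows, with a log2 fold change of 0.42 (SE 0.244) and 0.53 without P617 (SE 0.236), and its receptor PLAUR had 14.0 to 42.9 and 35.5 to 57.1, a log2 fold change of 0.66 (SE 0.307) and 0.78 without P617 (SE 0.304). PLG, the plasminogen that these proteases activate, had 319 in P617 and at most 2.90 in any other cow.

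C1 inhibitor blocks the complement proteases C1R and C1S, and also MASP1 and MASP2 of the lectin pathway. C1R had 1030 to 1690 in the 5 P cows other than P617 and 3245 in P617, against 2028 to 2778 in NP cows. C1S had 1664 to 2770 in the same 5 P cows and 5428 in P617, against 3080 to 4044 in NP cows. In both, the groups no longer overlapped once P617 was left out, with NP cows above P cows, as they were in the cathepsin gene CTSH too (3 of 41, against 1.37% of all genes). The log2 fold changes without P617 were 0.94 for C1R (SE 0.167, adjusted p = 0.159 in limma) and 0.80 for C1S (SE 0.172, adjusted p = 0.191), and with all cows they were 0.71 and 0.57. MASP1, of the lectin pathway, was higher in P cows at 25.4 to 218 against 3.06 to 32.5 in NP cows, with its highest values in P617 and P1541. Its log2 fold change was -2.35 (SE 0.696) and -1.97 without P617. MASP2 had 88.6 to 248.5 in P cows and 98.1 to 147 in NP cows. The difference was a log2 fold change of -0.20 (SE 0.262) and -0.03 without P617 (SE 0.218).

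The other proteases at an unadjusted p-value under 0.05 were PROC, higher in P cows at a log2 fold change of -1.50, and F8 (0.45), PRSS23 (0.76), KLK4 (1.31) and CTSH (0.56), higher in NP cows. Without P617 the values were -1.57 for PROC, 0.33 for F8, 0.86 for PRSS23, 1.47 for KLK4 and 0.70 for CTSH. PROC is the precursor of activated protein C, the target of SERPINA5, and F8 is a cofactor of coagulation.

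**Figure D5:**
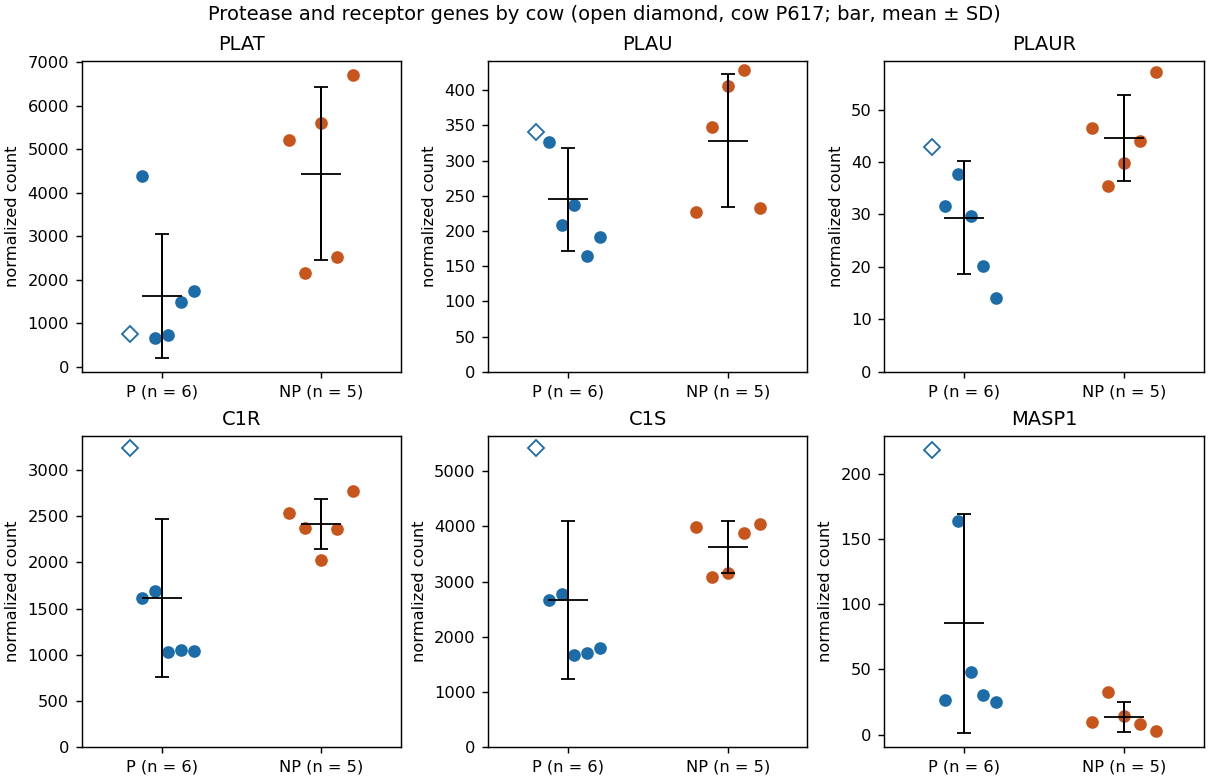
Normalized counts of protease and receptor genes by cow. Each vertical axis is the normalized count from 0, points are cows (P in blue, NP in orange, P617 as the open diamond) and bars are the mean and SD; in C1R and C1S all 5 NP cows lie above the P cows other than P617.

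A second list of 55 other protease inhibitors, receptors, collagens and collagen-processing enzymes had 44 genes in the test. None passed the adjusted threshold in limma (0% of all genes) or edgeR (0%), DESeq2 called 1, BTRAPPIN-4 (adjusted p = 0.0818; 1.33% of all genes), and in limma 3 had an unadjusted p-value under 0.05 (7.84% of all genes). Without P617 these were 6 of 40 (8.94% of all genes), all higher in NP cows (6.21%), namely P4HA3, COL5A2, COL1A2, COL3A1, the receptor gene LRP1 and ITIH4, a gene of the inter-alpha-trypsin inhibitor family. The trappin gene BTRAPPIN-4, a secreted inhibitor of elastase-like proteases that may share reads with copies, was higher in P cows at a log2 fold change of -1.77 (SE 0.732), and at -1.57 without P617 (SE 0.749) it was no longer at an unadjusted p-value under 0.05 (unadjusted p = 0.0589 in limma). BTRAPPIN-4 is also among the genes that the study called on these same cows, so its difference is not independent evidence. P4HA3, a prolyl hydroxylase of collagen, and COL5A2 were higher in NP cows at 1.51 (SE 0.417) and 0.79 (SE 0.300), and at 1.25 and 0.98 without P617. COL1A1, a client of SERPINH1, had 63340 normalized counts in P617, 93380 in P1541, 20570 to 28830 in the other P cows and 37760 to 57990 in NP cows, so that P617 and P1541 were its highest cows as they were for SERPINH1. Of the 19 other protease inhibitors tested, 6 had values above 0 and 13 below, and of the 19 genes of collagens and their processing 15 had values above 0 and 4 below. The latter split was 17 and 2 without P617 and 11 and 8 in both edgeR and DESeq2, while that of the inhibitors was 5 and 11 without P617 and 4 and 15 in both count tests. Among the inhibitors below 0 with all cows, AMBP, ITIH1 and ITIH2 entered the tests only through their high values in P617. Their direction was thereby fixed in limma and in both count tests. Of all genes tested, 7577 of 15081 had values above 0 in limma and 7020 of 15031 without P617. In edgeR these were 6906 of 15081 and in DESeq2 6598 of 15081.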

How the data were processed

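RNA-Seq was analysed in 11 endometrial biopsies. Per the study's methods and the submitters' processing notes, reads in pairs were filtered by the authors, mapped with Bowtie2 2.1.0 to the masked UMD3.1 assembly and counted per gene with HTSeq 0.5.4p2. The authors deposited these counts divided by a DESeq2 size factor per cow, a signal in normalized counts; the annotation used is not given in the sources used here. In every cow 100% of the values were whole multiples of the value of 1 read, within 0.05 reads.

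Limma 3.58.1 (with a trend, R 4.3.3) was run on log2(value + 1) of genes with a mean of at least 5, with Benjamini-Hochberg adjustment over all genes and a threshold of 0.1. Count tests on the recovered reads (edgeR 4.0.16, DESeq2 1.42.0, limma-voom), other scalings, pseudocounts, filters, marker score covariates and leaving out cows were alternatives. The tests were first tested on simulated data. There the share of false calls was higher for DESeq2 than for limma, edgeR and limma-voom, and it exceeded the threshold of 0.1. P-values measure the spread between cows, each sampled once.

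The members, lists and tests were chosen with earlier results of these data known. Per-cow values are given for the serpins the study lists, the uterine serpin, serpins at an unadjusted p-value under 0.05 or without overlap, and serpins chosen by textbook role. From the lists, PLAU, PLAT, PLAUR, MASP1, C1R, C1S, COL1A1 and those past the unadjusted threshold are named. GZMB, PLG, MASP2 and the SERPINA11 neighbours were named after their values or by gene order. RefSeq, of another assembly, matched 23 serpin symbols and served for gene order only, so coordinates and sequences are not given. The values of 1 serpin are not reported here, although it is included in the counts.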

Additional observations from a re-analysis of the deposited data

Results flagged for a closer look

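Each cow that lay far from the rest of its group, by Dixon's gap test at 95% on log2(normalized count + 1), was listed for the 25 serpins tested and for 6 marker scores. Of 62 groups of values, 9 were listed, and 7 of the 9 were cow P617. SERPINA3, SERPINA3-1, SERPINA3-3, SERPINA3-7, SERPINF2 and SERPIND1 entered the test only through P617. The number listed can therefore not be set against a rate given by chance. In that cow the normalized counts were 112 for SERPINA3, against 0 to 0.958 in the other P cows, 505 for SERPINA3-1, against 0 to 3.87, 56.5 for SERPINA3-3, against 0, 639 for SERPINA3-7, against 0 to 3.87, and 149 for SERPINF2, against 0 to 3.02. SERPINA14 had 0 in P617 against 190 to 663 in the other P cows. The liver marker score of P617 was 9.50 against 2.03 to 2.997 in the other P cows. Among NP cows, SERPIND1 had 7.06 in NP2541 against 1.08 to 2.04, and SERPINA3 had 1.01 in NP238, a single read, against 0.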

How the results depend on the processing

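No serpin passed the adjusted threshold in limma with any pseudocount, filter, scaling or covariate tried, with limma-voom or with edgeR, and the fits that left out a cow gave 0 to 1 serpins, the 1 being SERPINB9 without P904. DESeq2 gave 2 serpins with all cows and 2 without P617 (an alternative added after seeing the data). The number at an unadjusted p-value under 0.05, 3 in limma, was 8 with edgeR, 5 with edgeR without P617, 5 with DESeq2 without P617, 7 without cows P617 and P1541 and 5 with either the smooth muscle or the epithelial score as a covariate, and 3 to 5 when a cow was left out. The 7 without both cows were SERPINA1, SERPINA11, SERPINB5, SERPINB9, SERPINF1, SERPING1 and SERPINH1. SERPINF1 was not among the 5 with the smooth muscle covariate. For the target proteases the number was 19 without cows P617 and P1541, and 6 to 14 when a cow was left out. For the other inhibitors and clients it was 7 with edgeR, 6 with DESeq2, 17 without P617 and P1541, 17 with the smooth muscle covariate, 8 with the epithelial covariate and 2 to 6 when a cow was left out. Of the 7 with edgeR, AMBP, ITIH1 and VTN were high in P617 alone and too low for the test without it. The causes of these shifts were not tested. Of all genes, 11.1% were at an unadjusted p-value under 0.05 without P617 and P1541, 6.15% with the smooth muscle covariate, 11.6% with the epithelial covariate and 5.66% to 10.3% when a cow was left out. Over all genes, limma called 0, DESeq2 201, and limma 171 without P904, 17 without P617 and P1541 and 88 with the epithelial covariate. Over these alternatives, apart from the count tests without P617, the log2 fold change kept its direction in every one for 10 serpins, among them SERPINA11 (-2.09 to -1.46), SERPINB9 (0.87 to 1.14), SERPINF1 (0.96 to 1.57), SERPINA1 and SERPING1, and changed direction in at least 1 for 15, among them SERPINA14, SERPINA5, SERPINB5 and SERPINH1. No paired analysis was possible because the cow numbers of the groups do not pair. A gene at a mean of 5 rests on a few reads per cow.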
